A study of Mus musculus with 10 samples.

Results

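Iron handling in a differentiating blood progenitor line was followed through 10 genes: the uptake genes Tfrc, Steap3 and Slc11a2, the mitochondrial carriers Slc25a37 and Abcb10, the ferritin subunits Fth1 and Ftl1, the exporter Slc40a1, the haem oxygenase Hmox1 and the iron regulator Ireb2. They were picked by symbol, through the RefSeq accession of each probe, and the rule uses no measured value. The 10 were among 20504 genes measured on the arrays, and all 10 were among the 14211 genes tested. They were represented by 17 probes, 4 of the genes by 1 probe and 6 by several. Tests used the brightest probe of each gene.

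EML-C1 is a cytokine-dependent mouse blood progenitor line, and total RNA of its cells was hybridised to 1-colour Agilent arrays. Untreated cells (day 0) were set beside cells given erythropoietin (EPO, 10 ng/ml), cells given IL-3 (10 ng/ml) with all-trans retinoic acid (10 µM), and cells given both sets of factors, here called the combined treatment. GM-CSF (10 ng/ml) entered the IL-3 and combined cultures after day 3 only, so their day 3 cells had not received it, although the labels name the arm for both cytokines. At day 3 each culture was sorted into cells with low and with high Sca1, a surface protein of blood progenitors that is encoded by Ly6a, whereas the day 6 labels give no Sca1 fraction. One array per condition was analysed here, 10 in all, and the further duplicates that the design text mentions were not analysed here. All cultures came from the same line and held horse serum and conditioned medium, whose iron content the labels do not give.

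Iron bound to transferrin enters a cell through the transferrin receptor, is reduced in the endosome by the ferrireductase STEAP3 and leaves it through the divalent metal transporter encoded by Slc11a2. In a cell making haemoglobin most of that iron goes to the mitochondrion, where mitoferrin-1 (Slc25a37) imports it for haem and iron-sulfur cluster synthesis, while ferritin stores what is not used and ferroportin (Slc40a1) lets iron out. Iron regulatory proteins, one of them encoded by Ireb2, bind iron-responsive elements in several of these messages and couple their stability or translation to the iron of the cell.

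Levels are given as log2 processed intensity relative to the 75th percentile of the same array, so a level of 0 is the signal at that percentile. That percentile lay between 309 on the EPO Sca1-low array and 736 on the untreated array, and 42.5% to 57.2% of spots were well above background. Probes differ in their response, so levels were compared between arrays for 1 gene and not between genes. Of the 10 genes, 9 were well above background on all 10 arrays, and Slc40a1 on 5. The sort left its mark on Ly6a, which was at -4.25, -3.43 and -2.80 in the Sca1-low cells of EPO, IL-3 and the combined treatment and at 4.76, 2.64 and 1.89 in the Sca1-high cells. Erythroid markers moved with the fractions: of 14 listed, 12 were measured, and their summed level (linear, relative to the percentile) was 956 to 2205 in Sca1-low and 423 to 504 in Sca1-high cells.

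At day 3 the uptake genes, Abcb10 and Slc40a1 rose in Sca1-low cells over Sca1-high cells in all 3 treatments, whereas ferritin, Hmox1 and Ireb2 did not pass the test. A fit of the 6 day 3 arrays with treatment as a block (limma, Benjamini-Hochberg adjustment over 14211 genes) called 5 of the 10 genes higher and 0 lower. Over all genes tested, 4.09% were called higher and 6.99% lower. The median difference of the 10 genes was 1.11 on the log2 scale, and that of all genes 0.17. After quantile normalization these medians were 0.99 and 0.048. With 1 array per condition, these p-values measure how evenly the difference repeated over 3 treatments, and nothing here measures the spread between separate cultures. In bulk RNA, a smaller share of cells that carry a message and less of it per cell cannot be told apart.

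**Figure D1:**
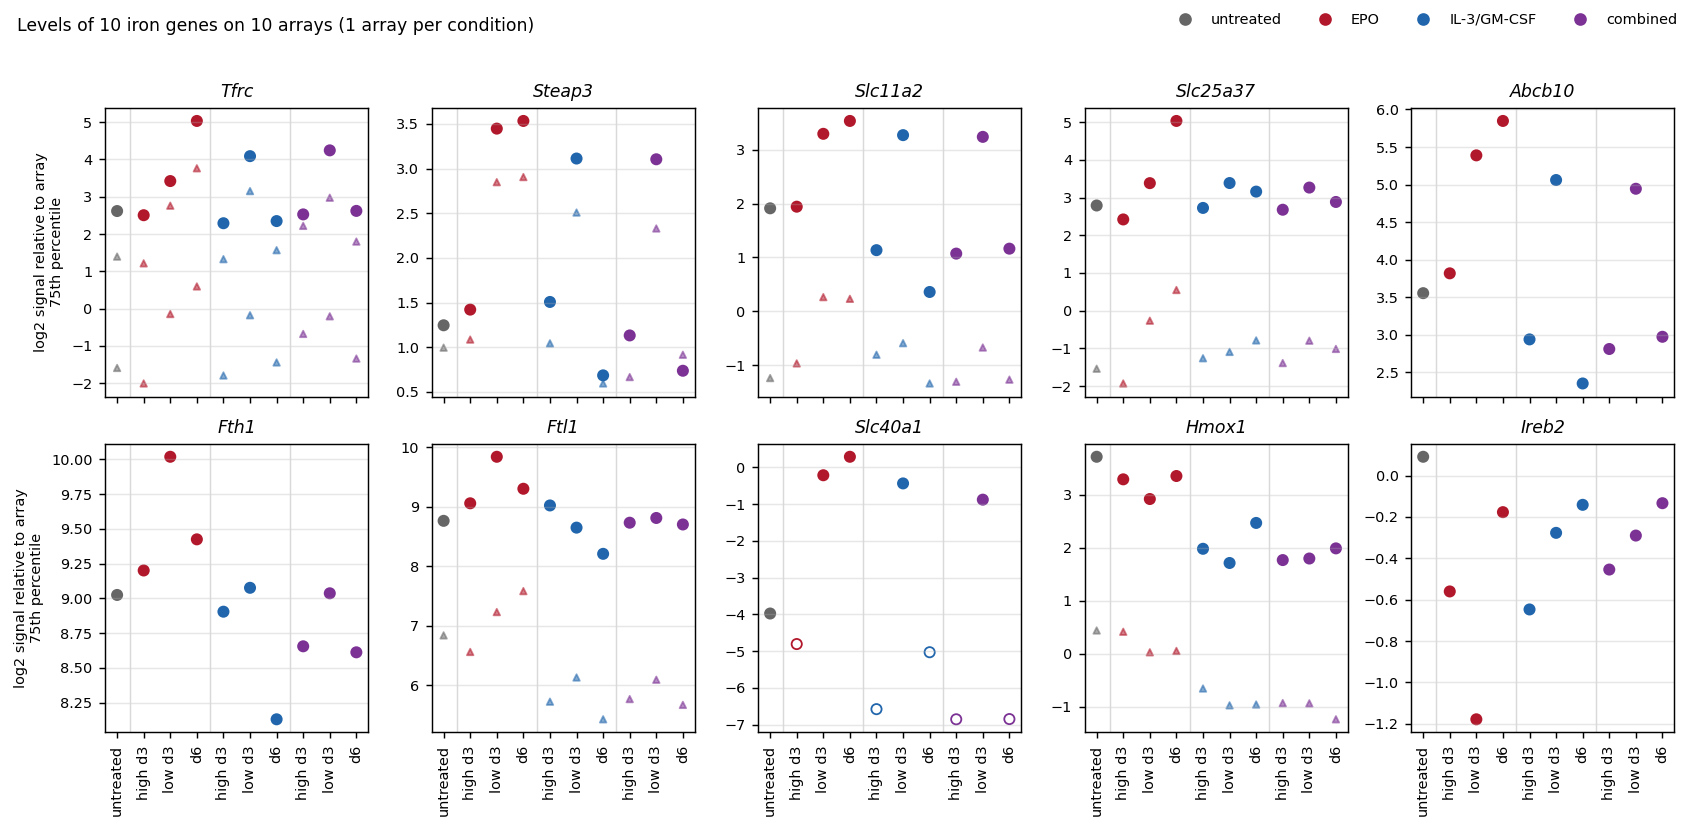
Log2 level of each of the 10 genes, relative to the 75th percentile of the array, on 10 arrays in the order untreated, then Sca1-high day 3, Sca1-low day 3 and day 6 of each treatment. Circles are the probe used for tests, small triangles the other probes of the gene, and open circles signals not well above background; each panel has its own vertical scale, and Tfrc, Steap3, Slc11a2, Abcb10 and Slc40a1 have a high Sca1-low point in every treatment but a high day 6 point with EPO alone.

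Tfrc encodes transferrin receptor 1, the main entry route of iron in erythroid cells. Its level was 2.62 in untreated cells. With EPO it was 3.42 in cells with low Sca1, 2.50 in those with high Sca1 and 5.03 at day 6. With IL-3 it was 4.09, 2.29 and 2.35, and with the combined treatment 4.24, 2.53 and 2.62, in the same order. The 3 Sca1-low arrays all stood above the 3 Sca1-high arrays, by 0.92 with EPO, 1.80 with IL-3 and 1.72 with the combined treatment. The fitted difference was 1.48 ± 0.27 (SE; limma adjusted p = 0.0371), a 2.78-fold rise. This call was the least secure of the 5, since its adjusted p was 0.0539 after quantile normalization and 0.0633 without the filter on dim probes. The other 2 probes of Tfrc gave mean differences of 1.32 and 1.37. On them EPO gave 1.86 and 1.55, IL-3 1.62 and 1.82, and the combined treatment 0.47 and 0.75, so they differed from the first most in the combined treatment.

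Steap3 encodes the endosomal reductase that converts ferric iron to the ferrous form. Untreated cells had a level of 1.25. The Sca1-low cells were at 3.45 with EPO, 3.11 with IL-3 and 3.10 with the combined treatment, and the Sca1-high cells at 1.42, 1.51 and 1.13. At day 6 the levels were 3.53 with EPO, 0.68 with IL-3 and 0.74 with the combined treatment. The Sca1-high values thus lay near the untreated one, and the fraction difference of 1.87 ± 0.21 (SE; limma adjusted p = 0.0127) was 3.65-fold. The second probe gave a mean difference of 1.63.

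Slc11a2 encodes the transporter that carries ferrous iron out of the endosome. It was at 1.91 in untreated cells. Its Sca1-low levels of 3.30, 3.27 and 3.24 with EPO, IL-3 and the combined treatment spanned less than 0.1, while its Sca1-high levels were 1.94, 1.14 and 1.07. The fitted rise was 1.89 ± 0.26 (SE; limma adjusted p = 0.0195), or 3.70-fold. Both non-EPO Sca1-high arrays were below the EPO one, so the difference was smaller with EPO (1.35) than with IL-3 (2.14) or the combined treatment (2.17). A second, dimmer probe of the gene gave a mean of 0.69 and only 0.21 with IL-3, so the probes disagreed on the size but not on the direction.

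Among the mitochondrial carriers, Abcb10 encodes an inner membrane transporter known to stabilise mitoferrin-1. Its level was 3.55 in untreated cells. It was 5.39, 5.06 and 4.94 in the Sca1-low cells of EPO, IL-3 and the combined treatment and 3.82, 2.94 and 2.81 in the Sca1-high cells. The rise of 1.94 ± 0.23 (SE; limma adjusted p = 0.0138) was 3.84-fold and was carried by a single probe. Slc25a37, which encodes mitoferrin-1 itself, was at 3.38, 3.39 and 3.27 in Sca1-low and 2.42, 2.73 and 2.68 in Sca1-high cells, against 2.79 untreated. These 2 sets did not overlap, but the fitted difference of 0.74 ± 0.21 (SE; limma adjusted p = 0.0939) was not called. It was called when only genes well above background on all 10 arrays were tested (adjusted p = 0.0399).

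Ferroportin, the product of Slc40a1 and the known cellular iron exporter, gave the widest separation of the 10 genes. Its level was -0.21, -0.44 and -0.88 in the Sca1-low cells of EPO, IL-3 and the combined treatment, and -3.98 in untreated cells. The measured values in Sca1-high cells were -4.81, -6.58 and -6.85, none of them well above background. The fitted difference was 5.57 ± 0.37 (SE; limma adjusted p = 0.0054), and against the background limit of each Sca1-high array, the lowest signal that counted as well above background there, the Sca1-low mean was at least 21.3-fold higher. By treatment the bound was 20.6-fold with EPO, 27.0-fold with IL-3 and 17.4-fold with the combined treatment. Macrophages also express ferroportin and haem oxygenase-1 strongly, and 10 of 11 listed monocyte and macrophage markers were measured. Of these, Csf1r and Itgam were well above background on all 10 arrays, Lyz2 and Ccr2 on 7, and Adgre1 and Mpeg1 on 6. Mrc1, Cd163, Vsig4 and Spic were so on 0. Among the 3 Sca1-low and the 3 Sca1-high arrays, Lyz2 and Ccr2 were above background on 1 and 3, Adgre1 on 1 and 2, and Mpeg1 on 0 and 3. The part of such cells in the Slc40a1 difference was not tested.

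The ferritin subunits, the heavy chain with its ferroxidase site (Fth1) and the light chain (Ftl1), were bright on every array. Fth1 was at 9.02 untreated, at 10.02, 9.08 and 9.04 in Sca1-low and at 9.20, 8.90 and 8.66 in Sca1-high cells. Ftl1 was at 8.76 untreated, at 9.84, 8.65 and 8.81 in Sca1-low and at 9.06, 9.02 and 8.73 in Sca1-high cells. Each list runs EPO, IL-3, combined treatment. Neither gene was called: the difference was 0.46 ± 0.23 (SE; limma adjusted p = 0.249) for Fth1 and 0.16 ± 0.29 (SE; limma adjusted p = 0.726) for Ftl1.

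The high ferritin level of the EPO Sca1-low array rests on the scale. Its processed intensity was 320230 for Fth1 and 282839 for Ftl1, below the 363100 and 328915 of EPO Sca1-high cells and the 383078 and 319576 of untreated cells, while its 75th percentile was the lowest of the 10 arrays. The brightest spots of the arrays read 439085 to 501189, so both genes lay near the upper end of the measured range, and no ferritin spot was marked as saturated. Ftl1 stood 1.08 above untreated on that array under percentile scaling, but -0.086 after quantile normalization and -0.025 after normexp background correction with quantile normalization. Scaling also set the sign of the EPO fraction difference on the tested probes of Tfrc and Slc25a37. Their processed intensities in EPO Sca1-low and Sca1-high cells were 3306.6 and 3505.3 for Tfrc, and 3221.6 and 3303.7 for Slc25a37. The other probes were brighter in the Sca1-low cells (279 against 153.6 and 2088.8 against 1430.8 for Tfrc, 256.5 against 161.7 for Slc25a37).

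Hmox1 encodes haem oxygenase-1, which opens the haem ring and frees its iron, and Ireb2 encodes iron regulatory protein 2. Hmox1 was highest in untreated cells, at 3.72. In Sca1-low and Sca1-high cells it was 2.92 and 3.29 with EPO, 1.71 and 1.98 with IL-3, and 1.80 and 1.77 with the combined treatment. The fraction difference was -0.20 ± 0.21 (SE; limma adjusted p = 0.536). Ireb2 was also highest in untreated cells, at 0.09, and was -1.18 and -0.56 with EPO, -0.28 and -0.65 with IL-3 and -0.29 and -0.45 with the combined treatment, with a fraction difference of -0.03 ± 0.28 (SE; limma adjusted p = 0.956). The sign of the Ireb2 difference was negative with EPO (-0.62) and positive with IL-3 (0.37) and the combined treatment (0.16).

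**Figure D2:**
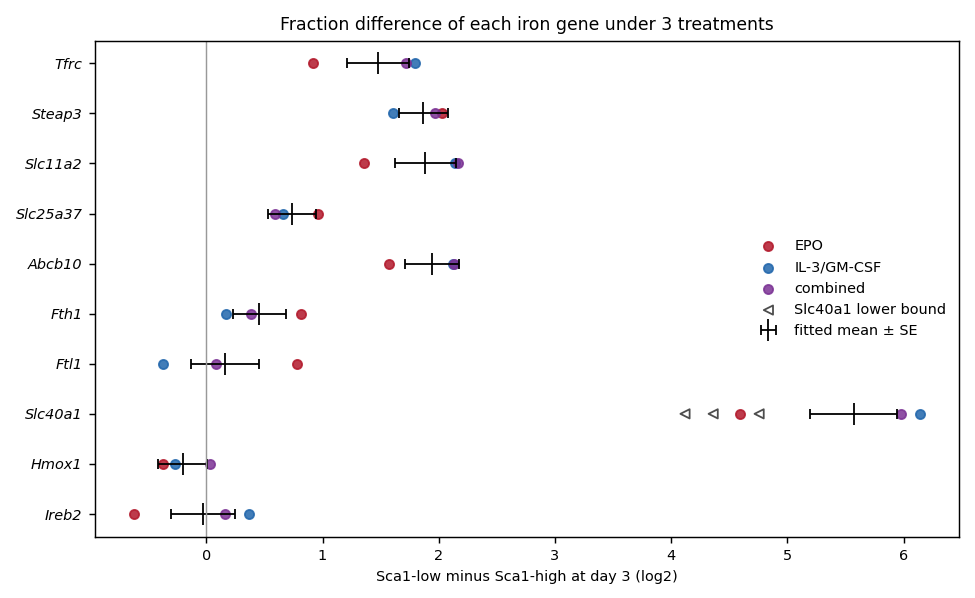
Sca1-low minus Sca1-high level at day 3 (log2, horizontal) of each of the 10 genes under EPO, IL-3 and the combined treatment (coloured points, 1 pair of arrays each), with the fitted mean and its SE in black and, for Slc40a1, the lower bounds set by background as open triangles. Tfrc, Steap3, Slc11a2 and Abcb10 lie between 0.92 and 2.17 in all 3 treatments, Slc40a1 far to their right, and Ftl1, Hmox1 and Ireb2 on both sides of 0.

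Counted pair by pair, 4 of the 10 genes were at least 2-fold higher in Sca1-low cells with EPO, where 12.2% of all genes were higher and 12% lower. The count was 5 with IL-3 (9.27% and 11.4%) and 5 with the combined treatment (11.4% and 10.6%), and 0 of the 10 were 2-fold lower in any pair. Complete separation of the fractions was common on these arrays. For 6 of the 10 genes (Tfrc, Steap3, Slc11a2, Slc25a37, Abcb10 and Slc40a1) all 3 Sca1-low values exceeded all 3 Sca1-high values, as they did for 21.4% of all genes tested. The same 6 were separated after quantile normalization, after normexp correction and with the mean of all probes of a gene. The part of the erythroid markers in the rise was not tested. Nor was that of the other 5 marker lists. Summed levels in Sca1-low against Sca1-high cells were 23.9 to 28.7 against 99.0 to 214 for 8 progenitor markers. They were 7.83 to 14.2 against 179 to 362 for 10 neutrophil markers, and 11.7 to 38.9 against 158 to 650 for 7 mast cell and basophil markers. A sum is weighted to its brightest genes, and Mpo alone was at 8.40, 7.72 and 7.03 in the Sca1-high cells of EPO, IL-3 and the combined treatment. Of the 10 neutrophil markers, 2 were called lower in Sca1-low cells and 0 higher (6.99% and 4.09% of all genes). Elane (0.32), Camp (0.58) and Mmp8 (0.28, dim in both fractions) had positive differences. They overlapped for the 10 measured monocyte and macrophage markers (22.6 to 126 against 43.5 to 105) and for 6 megakaryocyte markers (32.8 to 98.8 against 27.7 to 73.4). Leaving out the IL-3 pair of arrays left 0 of the 5 calls and 0% of all genes called. Leaving out the combined pair left 1, that of Slc40a1 (0.774% of all genes higher and 2.54% lower), while leaving out the EPO pair left all 5 (6.33% and 9.91%).

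Sequence upstream of the start was at hand for 6 of the 10 genes, in 11 windows of 250 bases (RefSeq, GRCm38.p6). Slc40a1, Hmox1, Slc11a2 and Slc25a37 had no entry. Windows were searched on both strands for the letters of GATA-factor sites (GATA preceded by A or T and followed by A or G) and of the hypoxia response element core (ACGTG), 2 motifs often discussed for erythroid and iron genes. Of all 32851 promoter windows of the table, 26.5% held a GATA match and 16.6% an ACGTG match. Among the 11 windows 1 held each. Shown are the windows of 3 genes that rose in Sca1-low cells, each before the most upstream start listed, with matched letters in capitals: Tfrc at chr16:32608646-32608895 (plus strand), with neither motif, Steap3 at chr1:120271081-120271330 (minus strand), with a GATA match 45 bases before the start, and Abcb10 at chr8:123983123-123983372 (minus strand), with neither.
Tfrc: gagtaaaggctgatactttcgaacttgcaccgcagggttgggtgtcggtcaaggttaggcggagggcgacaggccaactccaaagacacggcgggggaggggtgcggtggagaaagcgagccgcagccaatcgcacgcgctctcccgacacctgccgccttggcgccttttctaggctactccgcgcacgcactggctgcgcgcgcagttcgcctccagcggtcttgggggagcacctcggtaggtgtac
Steap3: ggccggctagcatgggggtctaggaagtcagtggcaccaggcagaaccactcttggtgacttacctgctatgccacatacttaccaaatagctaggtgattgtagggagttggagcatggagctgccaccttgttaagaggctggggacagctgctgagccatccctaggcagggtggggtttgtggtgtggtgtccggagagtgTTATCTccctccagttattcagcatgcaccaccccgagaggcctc
Abcb10: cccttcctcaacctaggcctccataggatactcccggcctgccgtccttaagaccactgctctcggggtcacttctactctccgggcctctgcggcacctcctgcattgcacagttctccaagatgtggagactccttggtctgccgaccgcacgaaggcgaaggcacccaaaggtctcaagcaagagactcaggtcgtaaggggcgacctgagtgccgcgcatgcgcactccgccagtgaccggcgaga
The ACGTG match was in the window of the second listed start of Tfrc (chr16:32608872-32609121, plus strand, not shown), 228 bases before that start. Steap3 has 3 further listed starts, whose windows held neither motif. A match is those letters in that window and no more.

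By day 6 the 3 treatments had parted. With EPO alone, 6 of the 10 genes were at least 2-fold above untreated cells and 0 were at least 2-fold below, where 11.6% of all genes were above and 11.2% below. They were Tfrc (2.42), Steap3 (2.29), Slc11a2 (1.62), Slc25a37 (2.24), Abcb10 (2.29) and Slc40a1 (4.26, or 19.2-fold), as log2 differences from the untreated array. With IL-3, 0 were above and 3 below (9.51% and 7.66% of all genes), namely Slc11a2 (-1.55), Abcb10 (-1.20) and Hmox1 (-1.25). The Slc11a2 fall was not seen on its second, dimmer probe, which gave -0.10. With the combined treatment, 0 were above and 2 below (7.11% and 6.11%), namely Hmox1 (-1.73) and Slc40a1, at least 2.62-fold lower. All of these share 1 untreated array and have no test.

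Slc25a37 and Tfrc were higher in EPO cells at day 6 than in the Sca1-low EPO cells of day 3. The level of Slc25a37 was 3.38 in EPO Sca1-low cells at day 3, within 0.12 of the other 2 treatments, and 5.03 in EPO cells at day 6, against 3.16 with IL-3 and 2.88 with the combined treatment. Tfrc went from 3.42 to 5.03 with EPO and stood at 2.35 and 2.62 at day 6 in the other 2. The other probes gave smaller steps from EPO Sca1-low to EPO day 6 cells: 0.81 against 1.65 for Slc25a37, and 0.74 and 1.00 against 1.61 for Tfrc.

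Between the 3 day 6 arrays, EPO cells were at least 2-fold above IL-3 cells for 8 of the 10 genes and below for 0, against 16.2% and 14.1% of all genes. Against the combined treatment they were above for 7 and below for 0, against 13.1% and 12.9%. Combined and IL-3 cells differed by at least 2-fold for 0 of the 10, against 2.49% higher and 2.89% lower. Slc40a1 in EPO cells (0.29) was at least 22.6-fold above IL-3 cells and at least 50.4-fold above combined cells, where it was not well above background (measured levels of -5.03 and -6.85). The EPO, combined and untreated arrays of this comparison were on the same slide, and the IL-3 day 6 array was on another. Each comparison is of single arrays and has no replicate check.

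Abcb10 was also highest with EPO at day 6, at 5.85 with EPO, 2.97 with the combined treatment and 2.35 with IL-3, and so was Slc11a2, at 3.54, 1.16 and 0.36. Ferritin was lowest with IL-3 at day 6. Fth1 was at 9.42 with EPO, 8.61 with the combined treatment and 8.13 with IL-3, and its processed intensity in IL-3 cells, 177009, was the lowest of the 10 arrays. Ftl1 was at 9.30, 8.70 and 8.21, in the same order. The second Ftl1 probe put the combined treatment 1.17 below untreated cells, where the first put it 0.06 below. For IL-3 against untreated cells the second probe gave -1.41 and the first -0.55. Ireb2 at day 6 was -0.18, -0.13 and -0.14 with EPO, the combined treatment and IL-3, 3 values within 0.05 of each other.

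**Figure D3:**
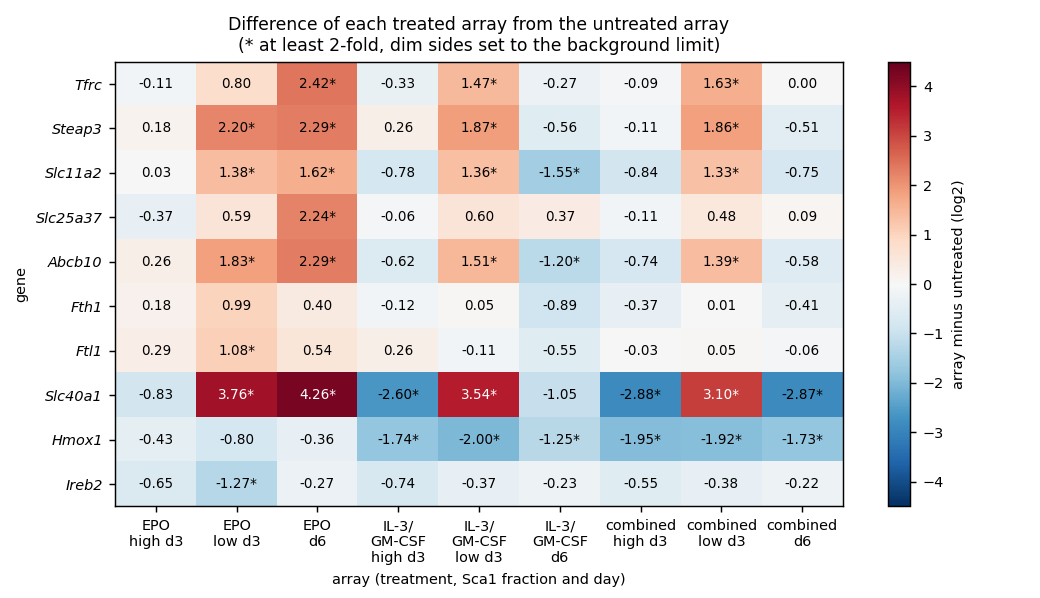
Difference of each treated array from the untreated array (log2) for the 10 genes, as coloured and printed cells, with columns ordered by treatment and, within it, Sca1-high day 3, Sca1-low day 3 and day 6. Asterisks mark differences of at least 2-fold, judged with signals below background set to the background limit, while the printed Slc40a1 values are the measured ones; 6 genes carry one in the EPO day 6 column with a positive sign, and none does with a positive sign in the IL-3 or combined day 6 column.

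Day 3 cells with high Sca1 stayed near the untreated cells when given EPO. In EPO Sca1-high cells 0 of the 10 genes were 2-fold above or below (2.95% and 1.27% of all genes), and 9 of the 10, all but Slc40a1, differed from untreated by -0.65 (Ireb2) to 0.29 (Ftl1). In IL-3 Sca1-high cells 0 were above and 2 below (7.97% and 6.17%), and with the combined treatment also 0 and 2 (7.15% and 6.02%). Both times these were Hmox1, by -1.74 and -1.95, and Slc40a1, at least 2.32-fold and 2.03-fold lower.

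In Sca1-low cells 5 of the 10 genes were 2-fold above untreated and 1 below in each treatment. The background shares were 18.5% and 14.9% with EPO, 7.46% and 9.01% with IL-3, and 9.08% and 10.7% with the combined treatment. Steap3, Slc11a2, Abcb10 and Slc40a1 were among the 5 each time. The other one was Tfrc with IL-3 (1.47) and the combined treatment (1.63), and Ftl1 with EPO, the value that depended on the scale. This split also depended on the probe. With EPO the tested Tfrc probe gave 0.80, but the other 2 rose by more than 2-fold (-0.15 against -1.59 untreated, and 2.76 against 1.39). The second Ftl1 probe was at 7.23 with EPO against 6.84 untreated, less than 2-fold. The lower gene was Hmox1 with IL-3 (-2.0) and the combined treatment (-1.92), and Ireb2 with EPO (-1.27).

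From Sca1-low cells of day 3 to day 6, the direction depended on the treatment. EPO cells gained at least 2-fold in 3 genes and lost in 0 (4.75% and 5.62% of all genes): Tfrc by 1.61, Slc25a37 by 1.65 and Ireb2 by 1.00. IL-3 cells gained in 0 and lost in 5 (12.6% and 10.6%), and combined cells likewise gained in 0 and lost in 5 (12.4% and 11.4%). The 5 were Tfrc, Steap3, Slc11a2, Abcb10 and Slc40a1 both times, with differences from -1.62 to -2.91 for the first 4 and at least 13.7-fold and 22.4-fold for Slc40a1. On its second probe Slc11a2 fell by less than 2-fold, from -0.59 to -1.34 with IL-3 and from -0.67 to -1.27 with the combined treatment. A fit of the 9 treated arrays for a shared day 6 difference called 0 of the 10 genes (limma; 0% of all genes each way after adjustment, 2409 at an unadjusted p under 0.05). Without the EPO day 6 array the same fit called those 5 genes lower and 0 of the 10 higher, and it then called 6.51% of all genes lower and 9.81% higher. Leaving out that array was not planned, and the fit draws on the same IL-3 and combined values as the pair counts. It is therefore no separate support for them. Day 6 cells with IL-3 or the combined treatment carried summed neutrophil marker levels of 2153 and 1696, against 7.83 to 14.2 in the 3 Sca1-low arrays and 11.7 in EPO day 6 cells, and all 10 markers were well above background there. The summed erythroid marker level was 2122 in EPO, 346 in combined and 117 in IL-3 day 6 cells, and 352 in untreated cells. Hbb-bt, a bright globin gene, was at 9.82, 8.16 and 6.66 in the 3 day 6 samples, so it weighs heavily in these sums. The median marker level was 5.65, -0.15 and -3.46 in the same order, and 1.48 in untreated cells. The part of either marker list in the iron gene levels was not tested.

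Across the 3 populations together, the treatments were compared in a fit that takes their interaction with population as error. It called 0 of the 10 genes between EPO and IL-3, where 0.00704% of all genes were called lower and 0% higher (1 gene lower; 2681 at an unadjusted p under 0.05). It called 0 of 10 between the combined treatment and IL-3 (0% each way, 259 genes unadjusted), and 0 of 10 between the combined treatment and EPO (1 gene, or 0.00704%, higher and 0% lower; 3353 unadjusted). Averaged over populations, Abcb10 was 1.57 ± 0.60 (SE; limma adjusted p = 0.248) higher with EPO than with IL-3, with 0.33 of it in Sca1-low, 0.88 in Sca1-high and 3.50 in day 6 cells.

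Hmox1 had the largest difference between EPO and IL-3 relative to its SE among the 10 genes. Its 3 EPO levels, 2.92, 3.29 and 3.35, all lay above its 6 levels with IL-3 or the combined treatment, 1.71 to 2.47. The untreated level, 3.72, was above all of these. Those 6 arrays had both IL-3 and retinoic acid, whose parts cannot be told apart. EPO minus IL-3 was 1.13 ± 0.21 (SE; limma adjusted p = 0.166, not called), with 1.21 in Sca1-low cells, 1.31 in Sca1-high cells and 0.89 at day 6. The combined treatment minus EPO was -1.34 ± 0.21 (SE; limma adjusted p = 0.116, not called), and the combined treatment minus IL-3 was -0.20. In no population did the combined treatment and IL-3 differ by more than 0.48. The second probe gave 1.01 for EPO minus IL-3 at day 6.

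Fth1 and Ftl1 also had all 3 EPO levels above the 6 others. That made 3 of the 10 genes so separated, against 6.4% of all genes, and 0 separated downwards, against 2.97%. After quantile normalization only Hmox1 of the 10 was separated in this way, while normexp correction and the mean of all probes of a gene kept all 3. Fth1 was 0.84 ± 0.25 (SE; limma adjusted p = 0.213) higher with EPO than with IL-3.

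The wider transferrin cycle did not move as one. Of 17 listed genes 12 were tested, and between Sca1-low and Sca1-high cells 1 was called higher and 3 lower (limma, adjusted over all genes), with a median of 0.15, which was 0.01 after quantile normalization. Trf, which encodes transferrin itself, was at 0.31, 0.61 and 0.38 in the Sca1-low cells of EPO, IL-3 and the combined treatment and at 5.73, 5.42 and 5.47 in the Sca1-high cells. It was at 5.42 in untreated cells and at -0.70, 4.39 and 5.14 at day 6. Its fitted difference was -5.11 ± 0.23 (SE; limma adjusted p = 0.0040), opposite in sign to that of the receptor gene Tfrc. Hfe, whose product binds transferrin receptor 1, was not well above background in any Sca1-low cells and was at least 3.88-fold higher in Sca1-high cells. The other gene called lower was Slc39a14, a zinc and iron transporter (-1.08, with an adjusted p just under the threshold), and the gene called higher was Exoc6 (1.20), part of the exocyst and known for its role in transferrin recycling. Both of these were named after their values were seen. Lcn2, which binds iron-carrying siderophores, was not called between the fractions (-1.56) and stood at 6.66 and 5.72 in IL-3 and combined day 6 cells, against -2.98 with EPO.

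Of 11 genes for storage, iron chaperones and iron sensing, 0 were called higher and 1 lower. That was Hif1a, a hypoxia-inducible factor subunit, by -2.25 ± 0.26 (SE; limma adjusted p = 0.0134). Ncoa4, the receptor that delivers ferritin for breakdown, was lower in Sca1-low cells in all 3 treatments (-2.79, -0.94 and -1.37) but was not called (limma adjusted p = 0.0720). The median of this list was 0.15 and turned to -0.09 after quantile normalization. Of 12 genes for export and systemic control 5 were tested and 0 were called in either direction, with a median of -0.21, which was -0.40 after quantile normalization. The hepcidin genes Hamp and Hamp2 gave -0.94 and 0.87, neither called. Each was well above background on only 1 of the 3 Sca1-low arrays, so these values rest partly on background signal.

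Of 19 genes for mitochondrial iron and iron-sulfur clusters, 8 were called higher and 0 lower, with a median of 0.59, or 0.39 after quantile normalization. Fam210b, a mitochondrial protein known in erythroid haem synthesis, rose by 2.33, Glrx5, a glutaredoxin of cluster assembly, by 1.83, and Tmem14c, a carrier of porphyrin precursors, by 1.65. Of 9 genes for haem synthesis 8 were called higher and 0 lower, with a median of 1.69, or 1.49 after quantile normalization. Cpox rose by 3.58, Alad by 3.40 and Alas2, the erythroid first enzyme of the pathway, by 3.24. The ninth was Alas1, the housekeeping form of that enzyme, at -0.38 (limma adjusted p = 0.679). These lists hold well known erythroid genes and were chosen with earlier results of these arrays known.

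Of 21 genes for haem transport, haem breakdown and the BACH1/NRF2 pathway, 17 were tested, and 2 were called higher and 0 lower, with a median of 0.30, or 0.13 after quantile normalization. Blvrb, which encodes biliverdin reductase B, rose by 2.66 (limma adjusted p = 0.0146), and Gclm, a subunit of the enzyme that starts glutathione synthesis, by 1.27. Bach1, a haem-binding repressor of Hmox1, gave -1.26 (limma adjusted p = 0.0907) and was not called. Of 12 proliferation genes 0 were called in either direction, with a median of 0.36, or 0.17 after quantile normalization. Between EPO and IL-3 0 genes of any of these 7 lists were called.

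**Figure D4:**
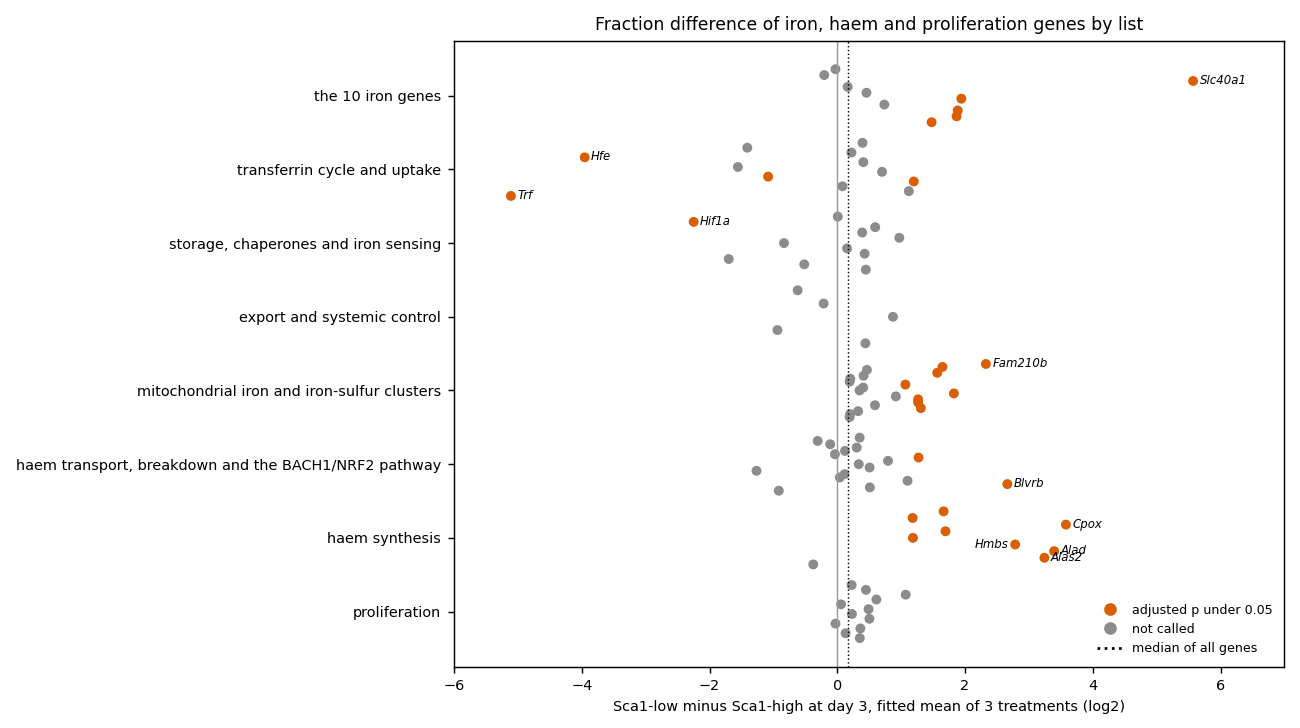
Sca1-low minus Sca1-high difference at day 3 (log2, fitted mean of 3 treatments, horizontal) for the 10 iron genes and the tested genes of 7 further lists, 1 point per gene, with genes called at an adjusted p under 0.05 in orange and the median of all genes (0.17) as a dotted line. Haem synthesis (8 of 9) and mitochondrial iron (8 of 19) lie mostly to the right, Trf, Hfe and Hif1a to the left, and the proliferation genes near the dotted line.

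Over the 10 arrays the genes formed a close group and a loose remainder. Pearson's r of log2 levels was 0.99 between Slc11a2 and Abcb10, 0.96 between Steap3 and Abcb10 and 0.94 between Slc40a1 and Abcb10. Tfrc followed Abcb10 at 0.90, and Slc25a37 followed Tfrc at 0.85. Fth1 and Ftl1 correlated with each other at 0.93, and Ireb2 with Ftl1 at -0.73. Hmox1 stood apart, with r from 0.04 to 0.41 with the other 9 genes. For Slc40a1, 5 of the 10 points are signals not well above background. These are descriptions over 10 arrays that share the same 3 fraction pairs and the same scaling, with no test.

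Among 12790 genes with signal clear of background on 5 or more arrays, those most like each gene were found by the same r. Bnip2, Trmt11 and Tab3 were most like Tfrc (0.98 each), Sppl2b, Cpne9 and Mgst3 most like Steap3 (0.99 to 1.00), and BC003965, Aplf and Phactr4 most like Abcb10 (0.99 to 1.00). For Slc40a1 they were Tbc1d24, Tcf23 and Optn (0.98 each, 5 of the 10 Slc40a1 points being dim), for Slc25a37 Gzf1, Gm5643 and Rhbdd1 (0.94 to 0.98), and for Slc11a2 C9orf72, Stx2 and Smap2 (0.99 each). Nmral1, 1500011B03Rik and Tymp followed Fth1 at 0.98 to 0.99, and Trex1, Spsb3 and Eri3 followed Ftl1 at 0.96. Rab3il1, Fam214b and Cdk16 followed Hmox1 at 0.92 to 0.94, the lowest first match of the 10 genes, and Son, Slmap and Mtmr6 followed Ireb2 at 0.97 to 0.98.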

How the data were processed

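The deposited files hold spot intensities from Agilent Feature Extraction (version 11.0.1.1, per the submitters' processing notes), and the processed intensity in them is the software's own corrected signal, per the file headers. The deposited series matrix held the same intensities. RNA came from sorted EML-C1 subpopulations and was labelled with Cy3, per the labels' protocols. Of each array, 59305 spots that were not controls were kept, spots marked as outliers were set to missing, and log2 of the processed signal minus log2 of the array's 75th percentile was used. RefSeq accessions named 27229 of 55681 probes. Repeat spots were averaged (SD 0.05 to 0.11 log2 for Tfrc), and the brightest probe of a gene was used. A gene was tested if 2 or more arrays showed it well above background. Tests used limma 3.58.1 in R 4.3.3 with Benjamini-Hochberg adjustment over all 14211 genes and a threshold of 0.05. They were also run on simulated data whose noise was smaller than the fitted spread, which does not measure their error rate on these arrays. Sca1 fractions were compared over 6 arrays with treatment as a block, and treatments and days over 9 arrays with an additive fit that has no interaction term. Single arrays were compared without a test, as at least 2-fold, with a dim side set to the background limit of its array. The 10 genes and all lists were chosen with earlier results of these data known. Of each list the text names up to 3 genes with the largest absolute difference between fractions or between EPO and IL-3, and for each of the 10 genes the 3 most correlated. Alternatives were quantile normalization, normexp correction, the series matrix values, the filter on dim probes, the probe rule, the model, the slide, and leaving out arrays. At day 3 both fractions of a treatment shared a slide (EPO and IL-3 on one, the combined treatment on another), so the treatment block already holds the slide in the comparison of fractions. The number of arrays limits the precision.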

Additional observations from a re-analysis of the deposited data

Results flagged for a closer look

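Several effects had opposite signs in different treatments, each on 1 pair of arrays, and the differences were not tested. From Sca1-low cells at day 3 to day 6, 6 genes had a positive difference with EPO and a negative one with IL-3 and with the combined treatment, although with EPO only Tfrc and Slc25a37 reached 2-fold, and Slc25a37 did not reach it with the other treatments. The gap between EPO and IL-3, and then between EPO and the combined treatment, was 3.35 and 3.23 (log2) for Tfrc and 2.51 and 2.45 for Steap3. It was 3.15 and 2.32 for Slc11a2 and 1.88 and 2.03 for Slc25a37. These signs are those of the tested probes. The second Slc11a2 probe gave -0.03 with EPO, and the second Slc25a37 probe rose with IL-3, from -1.10 to -0.79. Abcb10 gave 3.17 and 2.43, and Slc40a1 gave 5.10 and 6.47, with both lower values not well above background.

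Between Sca1-low and Sca1-high cells, smaller effects of opposite sign appeared for 3 genes that were not called. The effect on Ftl1 was 1.15 larger with EPO than with IL-3, and its effect with IL-3 minus that with the combined treatment was -0.45. This change of sign was on the tested probe only. The second Ftl1 probe gave 0.67 with EPO, 0.41 with IL-3 and 0.32 with the combined treatment. For Hmox1 the effect with EPO minus that with the combined treatment was -0.40, and with IL-3 minus the combined treatment -0.30. The second Hmox1 probe was negative in each treatment (-0.39, -0.32 and -0.0043 with EPO, IL-3 and the combined treatment). For Ireb2 the effect with EPO minus that with IL-3 was -0.99, and with EPO minus the combined treatment -0.78.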

How the results depend on the processing

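No pairing by replicate number was possible because no 2 conditions share more than 1 replicate number. Fractions were compared with treatment as the block, which pairs the Sca1-low and Sca1-high arrays of each treatment. The 5 calls between Sca1 fractions became 0 in an additive fit of all 10 arrays, and ranged from 0 to 5 when 1 treatment was left out. With slide as a block, 4 genes were called lower in the combined treatment than with EPO (0 otherwise; 2% of all genes lower, 4.08% higher), a fit whose values for those genes equal the day 6 pair that shares a slide. From day 3 Sca1-low to day 6, 0 genes were called, but 5 were called lower with slide as a block (3.29% of all genes lower, 6.1% higher). That slide fit can hardly tell slide from day, since a slide held only day 3 and another only day 6 treated arrays. Its difference for Abcb10, -4.77, lay beyond those of the EPO, IL-3 and combined pairs (0.46, -2.71 and -1.97). When 1 array or treatment was left out, 0 to 5 were called. The EPO Sca1-low minus untreated difference of Ftl1 turned to -0.086 after quantile normalization and -0.025 after normexp correction. Counts of 2-fold differences from untreated, 33 in all (21 higher, 12 lower), were 30 to 33 under 4 alternatives. Of the other values under alternatives 1163 kept direction and side of the threshold, 16 lost and 20 gained a call, and 64 moved. Normexp was run on the median signal, a choice made after seeing the data. The planned version on the mean signal was not run. No alternative addresses the lack of replicate cultures, and Slc40a1 has only bounds where it is dim.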

Other observations

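The 2 genes for aminolevulinate synthase, the first enzyme of haem synthesis, had opposite orders of levels at day 6. Alas2, the erythroid form, was at 4.75 in EPO cells and -0.79 with the combined treatment, and was not well above background with IL-3 (-6.49). Alas1, the housekeeping form, was at 3.13 in EPO cells, 7.36 with IL-3 and 6.59 with the combined treatment at day 6, against 2.42 in untreated cells. Alas1 at day 3 was also high in IL-3 Sca1-high cells, at 4.96, where Sca1-low cells had 3.03. Each value is 1 array, and no test was made.

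Hif1a followed the order of Lcn2 at day 6, at 3.94 with IL-3, 3.08 with the combined treatment and -1.62 with EPO. Blvrb ran the other way, at 7.92 with EPO and at 3.71 and 4.29 with IL-3 and the combined treatment, while Hmox1 was at 3.35, 2.47 and 1.99. Nqo1, an NRF2 target, was at 2.64 with EPO, -1.16 with IL-3 and 0.61 with the combined treatment.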
